A study of Mus musculus with 2 samples.

Results

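The regions described here are the accessible sites of the proximal mouse femur that had no counterpart in the distal femur and lay away from gene starts. They were selected on the positions of the called peaks: peaks of the proximal list that overlapped no distal peak by 1 bp or more and whose nearest edge was more than 3 kb from every transcription start site of the GENCODE mouse release 21 annotation. There were 3530 such peaks among 28257 proximal peaks. Accessible chromatin had been profiled by ATAC-seq, in which the Tn5 transposase cuts open DNA, in FVBNJ embryos at E15.5. The cartilaginous ends of the femur were dissected away from the bony shaft and labelled as growth plate chondrocytes, and each sample held the proximal or the distal ends of a single litter of on average 8 animals. Each end was sampled in 2 biological replicates of 50000 cells, and the groups did not differ in genotype or treatment. According to the study's methods the tissue included the growth plate with its perichondrium and excluded the bone collar, so each list describes a mixture of cell types. Each femur end had 1 deposited list of peaks reproducible between its replicates at an irreproducible discovery rate under 0.05, and these lists carry positions without heights or scores. Values per replicate were therefore not analysed, no test between the ends was possible, and a peak called in 1 list only may also be open in the other tissue below the calling threshold. Shares are given with 95% Wilson intervals, which cover counting error only.

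Open regions away from gene starts include enhancers, which bind transcription factors and act on the promoters of genes that can be far away on the same chromosome. Chondrocytes of the growth plate depend on SOX9 with its partners SOX5 and SOX6, and RUNX factors act as the cells enlarge and in the bone-forming cells beside them. AP-1 factors are dimers of the FOS, JUN and related ATF families that bind a short, nearly palindromic site, and many enhancers of mesenchymal cells hold such a site. The femur has growth zones at both ends that differ in shape and in the joint they serve, the hip above and the knee below.

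Among the short motifs searched, the AP-1 site TGACTCA and the RUNX core TGTGGT had the largest differences, in percentage points, between these regions and the distal-specific ones. The central 200 bp of 4 regions that hold both are shown from the mm10 genome (GRCm38), on the plus strand. They were taken, top down, from the 15 genes with the most proximal-specific far peaks, and only these 4 of the 15 had such a peak under the rule. Capitals mark matches to TGACTCA, the AP-1 letters, or to TGTGGT on either strand. On the other strand these read TGAGTCA for AP-1 and ACCACA for RUNX core. The region assigned to Macrod2 was chr2:141877086-141877285 and lay in an intron of that gene. Those assigned to Tns3 (chr11:8365637-8365836), Gpat3 (chr5:101241171-101241370) and Lmo4 (chr3:143542998-143543197) were intergenic. Their nearest shared peaks were between 39.5 and 117 kb away.
Macrod2: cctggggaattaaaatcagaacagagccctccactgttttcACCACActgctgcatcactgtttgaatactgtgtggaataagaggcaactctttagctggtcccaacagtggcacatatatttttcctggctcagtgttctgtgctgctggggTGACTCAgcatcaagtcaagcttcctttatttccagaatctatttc
Tns3: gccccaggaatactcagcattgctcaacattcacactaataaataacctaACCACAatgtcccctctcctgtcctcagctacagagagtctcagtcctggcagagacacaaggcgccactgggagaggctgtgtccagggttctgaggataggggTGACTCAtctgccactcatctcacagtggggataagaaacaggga
Gpat3: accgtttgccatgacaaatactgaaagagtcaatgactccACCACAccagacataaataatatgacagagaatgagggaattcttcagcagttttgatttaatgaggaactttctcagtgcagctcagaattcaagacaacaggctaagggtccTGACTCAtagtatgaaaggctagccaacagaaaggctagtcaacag
Lmo4: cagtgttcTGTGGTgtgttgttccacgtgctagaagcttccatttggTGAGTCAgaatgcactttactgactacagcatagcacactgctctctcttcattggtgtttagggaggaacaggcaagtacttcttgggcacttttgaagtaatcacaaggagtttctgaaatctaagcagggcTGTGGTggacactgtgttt
A match to these letters is a description of the sequence, and binding was not measured.

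The limits of the rule fell within a continuous range of start site distances. The members nearest to the 3 kb limit were 3001, 3017 and 3018 bp from a start site, with Trim7, Ifne and Epha3 as the nearest protein-coding genes. The peaks just outside it were 2999, 2962 and 2952 bp away, near Bace2, Cited2 and Oxgr1. The overlap limit behaved differently. The member nearest to a distal peak, at Ttyh1, was 9 bp from it, followed by gaps of 26 bp at Rgs4 and 29 bp at Slc7a5. Among far proximal peaks that did overlap a distal peak, the smallest overlaps were 221, 229 and 230 bp, so none of these peaks touched a distal peak by a few bases only. Of the members, 47 had a distal peak within 500 bp and 90 within 1 kb, which were 1.33% and 2.55%.

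Calls specific to the proximal list made up 16.1% of all proximal peaks and 25.5% of the 13862 proximal peaks more than 3 kb from start sites. Both percentages describe the rule itself. Of the proximal peaks within 3 kb of a start site, 1029 of 14395 were specific, or 7.15%. In the distal list, 2832 of 13196 far peaks were specific, or 21.5% (interval 20.8% to 22.2%). These distal-specific far peaks and the 10332 shared far peaks of the proximal list serve below as the regions for comparison. The share of far proximal peaks that were specific was similar on most chromosomes. It ran from 20.8% on chromosome 16 (124 of 595) to 29.6% on chromosome 5 (222 of 750), and the intervals of these extremes were 17.8% to 24.3% and 26.4% to 33.0%. The lists held autosomal peaks only.

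Specific peaks were narrow. Members had a median width of 506 bp (quartiles 407 and 629 bp, range 228 to 1538 bp), against 627 bp for shared far peaks and 477 bp for distal-specific far peaks. Far proximal peaks of up to 466 bp were specific in 39.7% of cases (1386 of 3493). The share was 30.8% for those up to 594 bp, 19.3% for those up to 745 bp and 11.9% for wider ones (410 of 3452). Peak width here stands in for no measured height, and the part that signal strength has in the call was not tested.

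Most members lay outside protein-coding genes. The centre was intergenic in 1817 of 3530 members (51.5%, interval 49.8% to 53.1%) and in an intron of a protein-coding gene in 1418 (40.2%, interval 38.6% to 41.8%). A further 237 (6.71%) lay in noncoding or pseudogene bodies only. Exons of protein-coding genes held 58 members (1.64%, interval 1.27% to 2.12%), of which 35 were in 3′ UTRs, 15 in coding sequence, 1 in a 5′ UTR and 7 in transcripts without a coding sequence. Among shared far peaks 52.2% were intergenic (interval 51.2% to 53.1%) and 38.4% intronic (37.5% to 39.3%). Among distal-specific far peaks 48.3% were intergenic (46.4% to 50.1%) and 41.8% intronic (40.04% to 43.7%), and the intervals of members overlapped those of both groups. Exonic positions were rarer among members than among shared far peaks (2.62%, interval 2.33% to 2.95%) or distal-specific far peaks (3.32%, interval 2.72% to 4.04%), and the intervals of these groups did not overlap those of the members. Coding sequence accounted for 0.425% of members, 1.24% of shared far peaks and 1.55% of distal-specific far peaks.

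**Figure D1:**
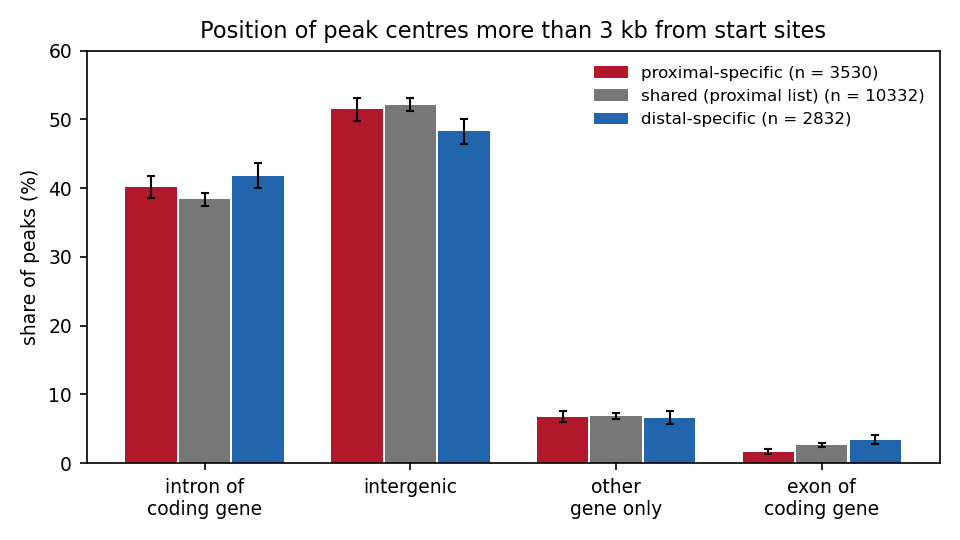
Share of peak centres (y axis, percent) in introns or exons of protein-coding genes, in other genes only, or intergenic, for the proximal-specific, shared and distal-specific groups of far peaks; error bars are 95% Wilson intervals. Intergenic positions are lowest in distal-specific peaks (48.3%), and exonic ones in proximal-specific peaks (1.64%).

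Within genes, members were spread over the introns. In the longest protein-coding transcript of the host, 372 of 1418 intronic members (26.2%, interval 24.0% to 28.6%) were in the first intron, 221 (15.6%) in the second and 83 (5.85%) in the last. First introns held 26.2% of shared and 27.0% of distal-specific intronic far peaks, within the intervals of the members. The introns that held members were long, with a median of 34856 bp, and so were those of shared far peaks (34858 bp). Altogether 1087 genes hosted an intronic member, and 59 hosted 3 or more. Macrod2, which encodes a hydrolase of ADP-ribose marks, hosted most with 8, beside 8 shared and 4 distal-specific far peaks in the same introns. Nrxn3, which encodes a cell adhesion protein best known from synapses, hosted 7 members and 7 shared far peaks, with no distal-specific one.

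Members were farther from start sites than the other far peaks. This distance was used by the rule, so it is given as a description. The median distance to a start site of any gene was 19902 bp for members (interval 18982 to 20857 bp, quartiles 9151 and 42905 bp), 17675 bp for shared far peaks (17180 to 18143 bp) and 17917 bp for distal-specific far peaks (17079 to 18583 bp). The lower quartiles were 9151, 8527 and 8691 bp and the upper ones 42905, 37363 and 37106 bp in the same order. More than 100 kb from any start site were 271 members (7.68%, interval 6.84% to 8.60%), against 5.65% of shared and 5.12% of distal-specific far peaks. When start sites of protein-coding genes alone were considered, the median distances were 42431 bp, 35989 bp and 34337 bp in the same order. The farthest member was 530326 bp from any start site. Members lay upstream of the nearest protein-coding start in 47.7% of cases and downstream of it in 52.3%.

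Members, like the other far peaks, were seldom beside a shared peak. The median gap between a member and the nearest proximal peak that overlapped a distal peak was 29974 bp (interval 28420 to 31946 bp, quartiles 12195 and 74439 bp), with a range from 36 to 1383010 bp. Only 76 members (2.15%) had a shared peak within 1 kb and 319 (9.04%, interval 8.14% to 10.0%) within 5 kb, while 2278 (64.5%) had one within 50 kb. Within 5 kb the share was 10.4% for shared far peaks and 8.02% for distal-specific far peaks. Distal-specific far peaks had a closely similar median gap to shared peaks of the distal list, 28203 bp (26684 to 29536 bp). The gap from a shared far peak to the next shared peak was smaller, with a median of 24651 bp (23799 to 25525 bp). Of the shared peaks nearest to members, 2051 (58.1%) were themselves more than 3 kb from start sites and 1323 (37.5%) were within 1 kb of one. The median gap between a member and the next member was 178916 bp.

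**Figure D2:**
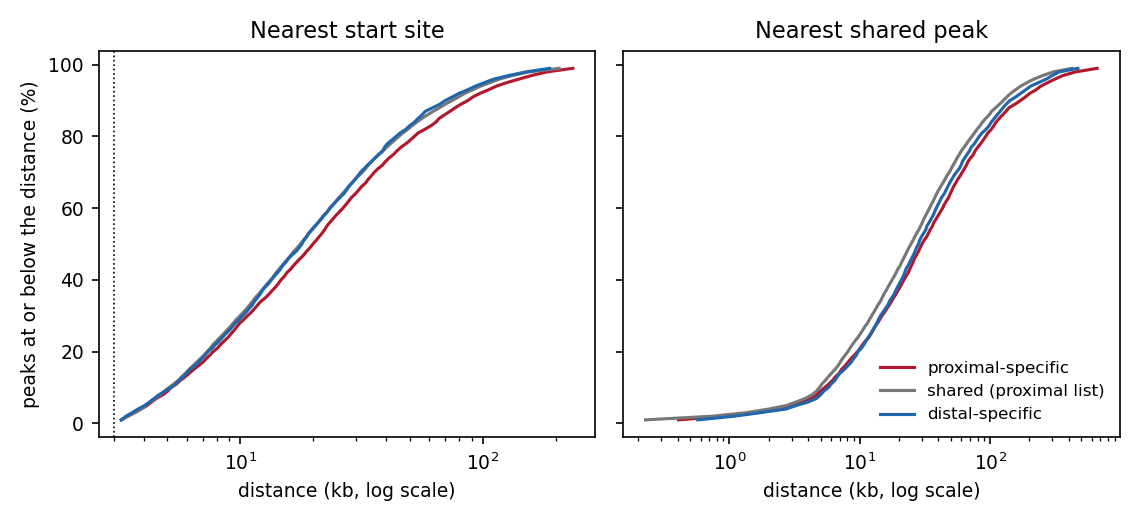
Percent of peaks (y axis) at or below a given distance (x axis, kb on a log scale) from the nearest start site, left, and the nearest shared peak, right, for the 3 groups of far peaks; the dotted line marks the 3 kb limit. The proximal-specific curve runs to the right of the others over most start site distances (median 19902 bp), and the shared curve lies to the left in the right panel.

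Each member was assigned to the protein-coding gene whose start site was nearest to its centre. Nearness does not show which gene a region acts on. The 3530 members were assigned to 2448 genes. Of these genes, 1741 had a single member, 707 had 2 or more, 229 had 3 or more and 85 had 4 or more. The genes also held other far peaks, with a shared far peak at 1612 (65.8%) and a distal-specific one at 816 (33.3%). The promoters of the assigned genes mostly had a peak at both femur ends, as did those of genes assigned to other far peaks. A peak lay within 1 kb of a start site of the gene in both lists for 1725 of the 2448 genes (70.5%, interval 68.6% to 72.2%), in neither list for 592 (24.2%), and in the proximal list alone for 51 (2.08%, interval 1.59% to 2.73%). The proximal list alone also had such a peak for 1.73% of genes assigned to shared far peaks and 1.84% of those assigned to distal-specific far peaks. Both values are within the interval for members, while the share over all 20807 autosomal protein-coding genes was 1.37% (interval 1.23% to 1.54%). A peak in the distal list alone was more frequent, at 80 of the 2448 genes (3.27%, interval 2.63% to 4.05%). It was found for 2.77% of the 20807 genes. Peaks in both lists were found for 67.7% of genes assigned to shared far peaks, 69.3% of those assigned to distal-specific far peaks and 55.0% of all these protein-coding genes.

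Cdh11, which encodes a cadherin of mesenchymal and bone-forming cells, had more members than any other gene. It had 10 members against 5 shared and 2 distal-specific far peaks, and none of the 10 was as wide as the median proximal peak (711 bp). The gene lies at chr8:102632095-102785642 on the minus strand, and none of its members was inside it. Of the members, 9 were intergenic and 1 was in a noncoding gene, 7 were downstream of the start and 3 upstream, from 507 kb upstream to 1339 kb downstream of the nearest Cdh11 start site. The 4 most distant, the first at chr8:101298499-101299052, were between 232 and 365 kb from the nearest shared peak, whereas the member at chr8:101913609-101914077 was 9.04 kb from one.

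Has2, which encodes the enzyme that makes hyaluronan of the cartilage matrix, had 7 members, 4 shared and 0 distal-specific far peaks. The gene is at chr15:56665627-56694539 on the minus strand, and its promoter had a peak in the proximal list only. The widest of its members was 1001 bp long, at chr15:56615530-56616530, downstream of the gene and 17.6 kb from a shared peak. The 3 most distant on the upstream side lay between 263 and 281 kb from the start site, inside the noncoding gene Gm2582, at chr15:56956702-56957516, chr15:56969907-56970567 and chr15:56975314-56976076. The nearest shared peaks of these 3 were between 186 and 192 kb away.

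Sel1l, a component of the machinery that clears misfolded proteins from the endoplasmic reticulum, also had 7 members, beside 3 shared and 2 distal-specific far peaks. All 7 were intergenic and upstream, between 454 and 1835 kb from the gene, so that here the nearest gene was remote. Tns3, which encodes a focal adhesion protein, had 7 members against 10 shared far peaks. Its members were 2 in introns and 5 outside the gene.

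Of the 15 leading genes, 9 had 6 members. Sema6d, a membrane-bound semaphorin, had 6 members and 2 shared far peaks, so that 6 of its 8 far proximal peaks were specific. Genes with equal numbers of members were ordered by this share, so high shares among these 9 follow in part from the tie rule. Over all far proximal peaks 25.5% were specific. Robo1, a receptor for the SLIT guidance proteins, had 6 members and 8 shared far peaks. Nav3, a microtubule-associated protein of the neuron navigator family, had 6 and 7, Mast4, a microtubule-associated kinase, 6 and 5, and Ttll7, a tubulin-modifying enzyme, 6 and 3. Anks1b, with 6 members and 3 shared far peaks, and Mast4 had all of their members in their own introns. App, the amyloid precursor protein gene, had 3 in its introns and 3 outside. The members of Gpat3, an enzyme of triglyceride synthesis, and of Ttll7 all lay downstream in intergenic sequence, and Lmo4, a LIM-only transcriptional cofactor, had 5 of 6 downstream. Of the 15 leading genes Has2, Nrxn3, Gpat3 and Nav3 had 0 distal-specific far peaks and Macrod2 had 4. Genes with 6 members numbered 15, and those left out by the tie rule included Tenm3, with 5 distal-specific far peaks. Because the genes were ranked by their members, an excess of members over distal-specific peaks follows in part from the ranking. Over the 85 genes with 4 or more members there were 401 members, 486 shared and 118 distal-specific far peaks, and 24 of the genes had no distal-specific far peak. Conversely, at genes with 4 or more distal-specific far peaks there were 163 distal-specific far peaks and 69 members.

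**Figure D3:**
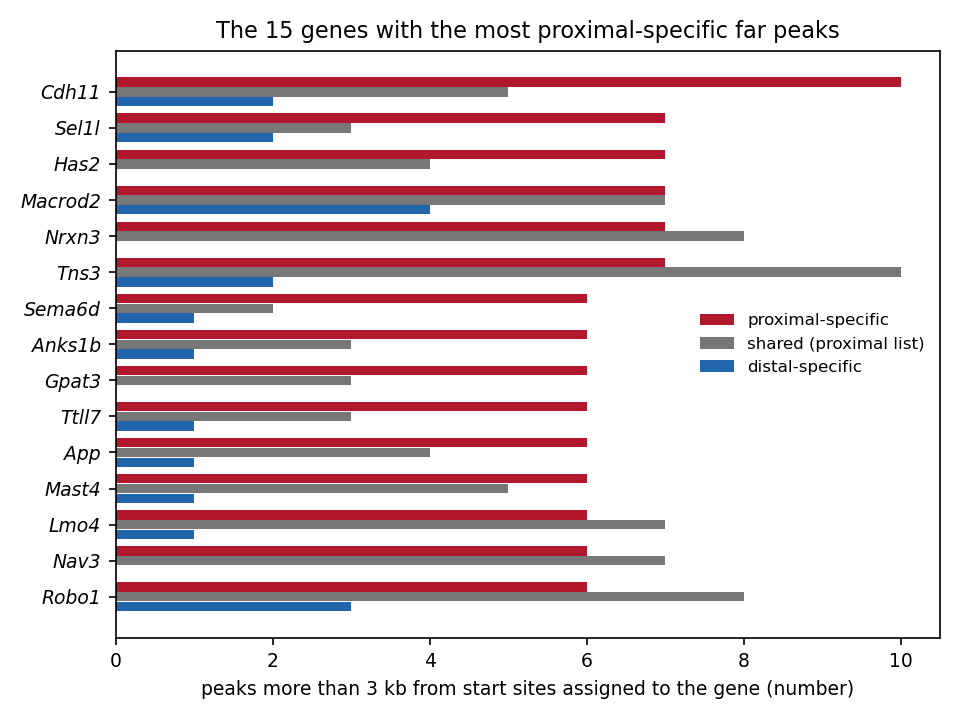
Number of far peaks (x axis) assigned to each of the 15 genes with the most proximal-specific far peaks, split into proximal-specific, shared and distal-specific peaks. Cdh11 has 10 proximal-specific peaks, and Has2, Nrxn3, Gpat3 and Nav3 have 0 distal-specific ones.

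**Figure D4:**
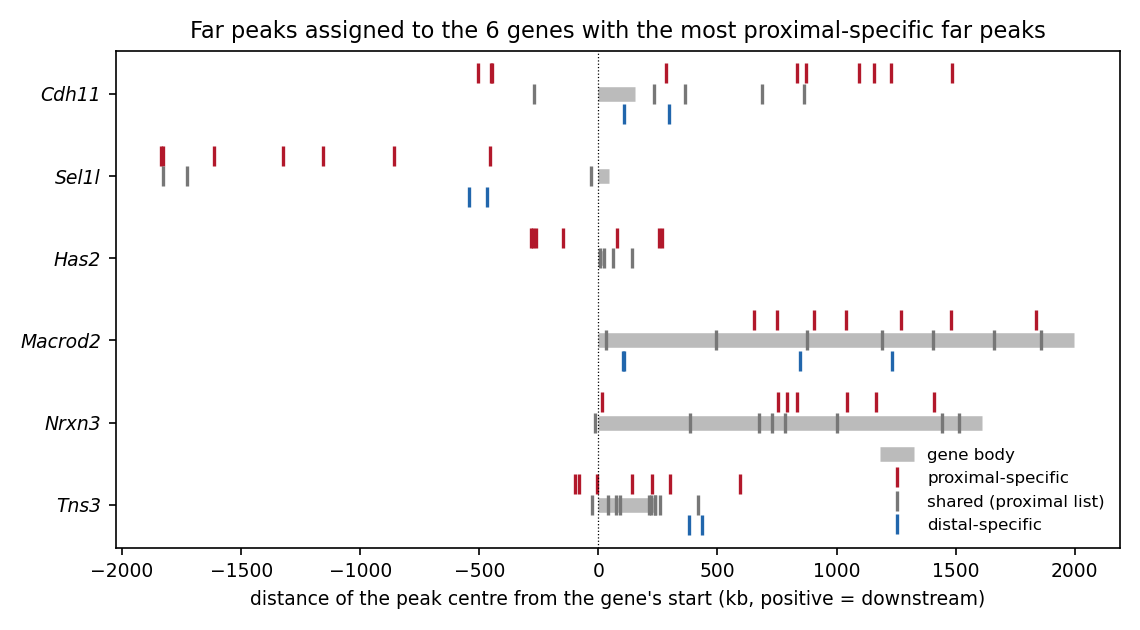
Position of far peaks relative to the start of the gene (x axis, kb, positive values downstream) for the 6 genes with the most proximal-specific far peaks; ticks are peak centres coloured by group and grey bars are gene bodies. The proximal-specific peaks of Cdh11, Sel1l and Has2 lie outside the gene, and the 7 each of Macrod2 and Nrxn3 lie inside it.

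Gene groups known in the skeleton were read beside the share of 25.5% that was specific among all far proximal peaks. Chondrocyte transcription factor genes stayed below it. Of 17 such genes 8 had a member, and 23 of their 126 far proximal peaks were specific (18.3%, interval 12.5% to 25.9%), the upper bound being just above the share for all far peaks. Sox9, the master regulator of chondrocytes, had 6 members, 10 shared and 3 distal-specific far peaks. They lay from 166 kb upstream to 281 kb downstream of its start, the widest (848 bp) at chr11:112697644-112698491. Its partner Sox5 had 4 members, 17 shared and 4 distal-specific far peaks. Sox6, the other partner, had 3 members, all in its introns, with 6 shared and 0 distal-specific far peaks. Trps1, a repressor of the same lineage, had 4 members against 17 shared and 2 distal-specific far peaks. FGF pathway genes had 6 members among 48 far proximal peaks (12.5%, interval 5.86% to 24.7%), and hedgehog and PTHrP pathway genes 4 among 38 (10.5%, interval 4.17% to 24.1%). The upper bounds of these groups were under 25.5%, and with 16 lists an interval that misses the value can arise by counting error alone.

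Cartilage matrix genes had 18 members among 59 far proximal peaks (30.5%, interval 20.3% to 43.1%), assigned to 8 of 25 genes. Has2, at which 7 of 11 far proximal peaks were specific, gave 7 of these 18. It also gave 7 of the 9 members of the hyaluronan genes, which had 33 far proximal peaks (27.3%, interval 15.1% to 44.2%). Both intervals held 25.5%, the share for all far proximal peaks, and the shares without Has2 were not computed. Col11a1, a chain of the thin cartilage fibrils, had 3 members in intergenic sequence, one of them 1086 bp long at chr3:113859597-113860682. It also had 5 shared and 3 distal-specific far peaks. Among BMP and TGF-beta pathway genes 20 of 95 far proximal peaks were specific (21.1%, interval 14.1% to 30.3%). The ligand genes Bmp2 and Tgfb2 had 3 members each, all intergenic. Bmp2 also had 7 shared and 0 distal-specific far peaks, and Tgfb2 had 6 and 1. The 3 members of Tgfb2 were gathered between 145 and 171 kb downstream of its start, and its promoter had a peak in the distal list only. Wnt pathway genes had 14 of 61 (23.0%) and AP-1 and ATF factor genes 5 of 31 (16.1%). Of the latter, Maf, the gene of a basic leucine zipper factor, had 3 upstream of its start, beside 5 shared and 0 distal-specific far peaks.

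Genes of IGF signalling and body size had 13 members among 60 far proximal peaks (21.7%, interval 13.1% to 33.6%). Pappa, which encodes a protease that frees IGFs from binding proteins, had 6 of these, 5 of them intergenic and upstream, with 9 shared and 0 distal-specific far peaks. Its promoter had a peak in neither list. Proximal limb and hindlimb patterning genes had 15 members among 53 (28.3%, interval 17.97% to 41.6%), assigned to 11 of 26 genes. Isl1, needed for the start of hindlimb formation, had 4 members between 102 and 560 kb downstream, beside 6 shared and 0 distal-specific far peaks. None of 39 Hox genes was the nearest gene of a member, and only 1 shared and 1 distal-specific far peak were assigned to them. With 1 far proximal peak in all, the absence of members says little about these genes.

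Marker genes of other tissues that the dissection could contain were examined in the same way. Joint, tendon and perichondrium genes had 22 members among 86 far proximal peaks (25.6%, interval 17.5% to 35.7%) and 26 distal-specific far peaks. Dcn, the gene of a small proteoglycan of connective tissue, had 3 members, 7 shared and 2 distal-specific far peaks. Neither list had a peak at its promoter. Sema3a, a secreted semaphorin, had 4 members, all in its introns, beside 3 shared far peaks and 1 distal-specific far peak. Genes of RUNX factors and osteoblasts had 4 members among 26 (15.4%, interval 6.15% to 33.5%). Col1a2, a chain of the bone and tendon collagen, had 3 of these against 1 shared far peak, and the member at chr6:4456659-4458044 was 1386 bp long. Muscle genes had 4 members among 15, blood and vessel genes 6 among 33 and nerve and glia genes 2 among 8. A peak within 1 kb of a start site in both lists was found for 14 of 17 chondrocyte transcription factor genes. Among the lists of other tissues it was found for 17 of 27 joint, tendon and perichondrium genes, 8 of 20 genes of RUNX factors and osteoblasts, 6 of 15 nerve and glia genes, 4 of 22 muscle genes and 5 of 27 blood and vessel genes. The part that cells other than chondrocytes have in the members was not tested.

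Most members stood alone along the genome. When members with gaps of up to 50 kb were chained, 2789 (79.0%) had no other member in reach. The rest formed 300 pairs, 33 runs of 3, 8 runs of 4 and 2 runs of 5. Runs of 2 or more held 20.99% of members and 19.0% of distal-specific far peaks chained in the same way. The first run of 5 lay at chr5:101112101-101173132, in 61.0 kb of intergenic sequence downstream of Gpat3, and contained 1 shared peak and no distal-specific one. The other covered 92.5 kb at chr5:21440756-21533268. Its members were assigned to Fam185a and Lrrc17, a secreted leucine-rich repeat protein, although the 3 assigned to Lrrc17 lay in introns of Fbxl13.

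The 8 runs of 4 were all considered, since they tied for the next place. A run of 81.2 kb at Tnfsf4 and Tnfsf18, which encode costimulatory ligands of the tumour necrosis factor family, contained no shared and no distal-specific peak. The same held for the run upstream of the serotonin receptor gene Htr2a (60.8 kb, inside a noncoding gene) and for the run in introns of Dlgap2 (77.3 kb), which encodes a synaptic scaffold protein. The members of the Htr2a run were between 411 and 471 kb from the nearest Htr2a start site. The promoters of Tnfsf4, Tnfsf18, Htr2a and Dlgap2, the genes of these runs, had a peak in neither list. The runs at Actbl2, Otud1, Speer4f2, Tmem184c with the endothelin receptor gene Ednra, and Adgra2 with its neighbours Brf2, Got1l1 and Rab11fip1 contained between 1 and 4 shared peaks. A distal-specific peak occurred in 1 of the 10 runs, that at Adgra2. The runs were picked for their members, and the number of distal-specific peaks expected in spans of their length was not computed. A member of the Dlgap2 run was 2.51 kb from a distal peak outside the run. Chained in the same way, distal-specific far peaks formed 5 runs of 4 or more.

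Members had a lower GC content than the other far peaks. The median GC content was 45.7% (interval 45.5% to 46.0%), against 47.3% (47.2% to 47.4%) in shared and 47.9% (47.7% to 48.3%) in distal-specific far peaks. Bases soft-masked as repeats made up a median of 9.11% of a member (interval 8.69% to 9.52%), 9.16% of a shared far peak and 8.02% of a distal-specific far peak (7.63% to 8.44%), and 107 members (3.03%) were masked over at least 50% of their length.

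Among 19 short motifs searched on both strands in the central 200 bp, AP-1 was the one found most often in members. It was present in 1235 of 3530 members (35.0%, interval 33.4% to 36.6%), 31.7% of shared far peaks (30.8% to 32.6%), 24.4% of distal-specific far peaks (22.8% to 26.0%) and 19.9% of all 32388 merged peaks of both lists. In 6990 windows of the same length 2 kb beside members that held no peak, the share was 3.49% (3.09% to 3.95%). RUNX core was present in 22.2% of members (interval 20.9% to 23.6%), 18.2% of shared far peaks (17.5% to 19.0%), 13.5% of distal-specific far peaks (12.2% to 14.8%) and 14.5% of the windows beside members (13.7% to 15.4%). The share in members was above both that in distal-specific regions and that in DNA beside the members. Windows beside the distal-specific regions were not searched. Median GC content was 49% in the central 200 bp of distal-specific regions and 42.5% in the windows beside members, so these shares are not matched for base composition.

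Other motifs differed less between the groups of far peaks. TEAD GGAATG was found in 14.2% of members and 15.1% of distal-specific far peaks, MEIS TGACAG in 14.6% and 14.8%, and the E-box CAGCTG in 14.1% and 14.8%. A CTCF core, the site of the insulator protein, was found in 3.46% of members, 3.57% of shared and 3.88% of distal-specific far peaks, and in 0.114% of the windows beside members. SOX core AACAAT was found in 5.67% of members, 4.84% of shared and 5.37% of distal-specific far peaks. It was more common in the windows beside members (13.5%), as was the site AGATAA of GATA factors (13.5% against 4.82% of members). Those windows had a median GC content of 42.5%, against 46.5% in the central 200 bp of members. TCF ATCAAAG was found in 3.23% of members (interval 2.70% to 3.87%) and 2.25% of shared far peaks (1.98% to 2.55%). In distal-specific far peaks it was at 2.54% (2.02% to 3.19%), an interval that overlapped that of members. The windows beside members held it more often (4.11%, interval 3.67% to 4.60%). The homeodomain letters TAATTA were in 4.36% of members and the HOX13 letters CAATAAA in 2.83%, with intervals that overlapped those of distal-specific far peaks. NFY CCAAT was in 24.1% of members and 27.9% of the windows beside them. FOX, ETS, PBX, CRE, EBF, MEF2 and NFI letters ranged from 0.0567% of members for NFI to 3.48% for FOX. Matches of different motifs were counted separately even where they overlapped.

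**Figure D5:**
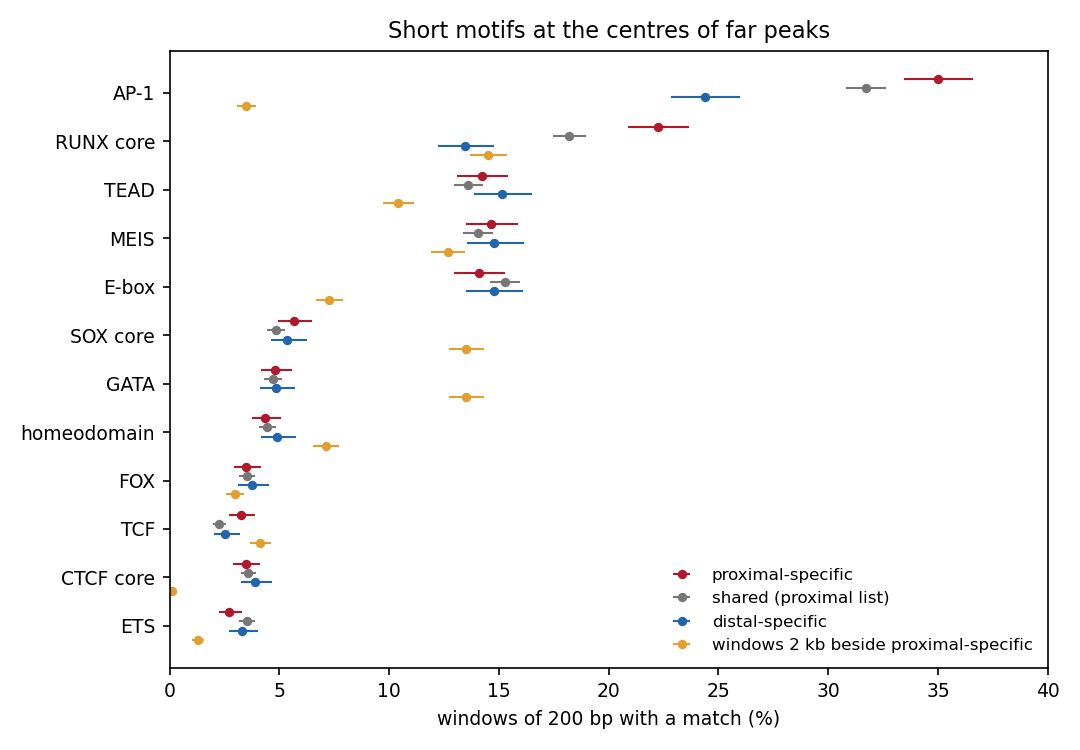
Percent of central 200 bp windows with at least 1 match (x axis) to 12 of the motifs, for the 3 groups of far peaks and for windows 2 kb beside proximal-specific peaks; bars are 95% Wilson intervals. AP-1 and RUNX core are highest in proximal-specific peaks (35.0% and 22.2%), while most other motifs have overlapping intervals among the 3 groups of peaks.

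AP-1 and RUNX core occurred together in members about as often as the product of their single shares. Both were present in 256 members (7.25%, interval 6.44% to 8.15%), AP-1 alone in 979, RUNX core alone in 529 and neither in 1766 (50.03%). The product of the single shares is 7.78%, within the interval for members with both. In shared far peaks both were present in 5.81%, and the product was 5.77%. RUNX core was found in 20.7% of members with AP-1 (interval 18.6% to 23.1%) and in 23.1% of members without it (21.4% to 24.8%). In 9 members the sites shared a base. AP-1 matches in members lay at a median of 39.5 bp from the peak centre, and 32.5% of the 1442 matches were within 25 bp (interval 30.1% to 34.9%). This share was 31.1% in distal-specific far peaks (28.0% to 34.4%) and 25.1% of 251 matches in the windows beside members (20.1% to 30.8%), so the intervals overlapped. Per 100 member windows, AP-1 matches rose from 2.32 and 2.66 in bins 90 bp from the peak centre to 4.84 and 5.44 in bins 10 bp from it. In the windows beside members these values were 0.329 and 0.200, and 0.315 and 0.415. The band within 25 bp of the centre held 27.2% of the 908 RUNX core matches (24.4% to 30.2%) and 26.5% of RUNX core matches in the windows beside members, so no concentration of RUNX core at the centre was seen.

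The AP-1 share depended on peak width. It was 37.4% in members up to 407 bp wide, 45.5% in those up to 506 bp, 33.8% in those up to 629 bp and 23.1% in wider ones. Shared far peaks of the same width classes had AP-1 in 24.2%, 43.2%, 35.0% and 28.7%, so the excess of members over shared peaks was present in the narrowest class, where the intervals did not overlap (34.2% to 40.6% against 21.9% to 26.6%), and turned round in the widest (20.5% to 26.1% against 27.4% to 29.9%). The RUNX core share of members was 19.98%, 24.9%, 22.9% and 21.2%, against 15.4%, 18.6%, 19.9% and 18.01% in shared far peaks. The intervals did not overlap in the narrowest class (17.48% to 22.7% against 13.5% to 17.46%) or the next (22.2% to 27.8% against 16.7% to 20.6%), and they overlapped in the other 2 classes. In distal-specific far peaks of these classes AP-1 was found in 26.7%, 33.8%, 21.8% and 13.8%, and RUNX core in 13.8%, 13.5%, 14.1% and 12.2%. Over whole peaks, members and shared far peaks had nearly equal shares, 48.1% and 48.8% for AP-1 and 42.5% and 42.3% for RUNX core. Distal-specific far peaks stayed lower, at 33.8% and 31.5%. Median widths were 506 bp in members, 627 bp in shared and 477 bp in distal-specific far peaks, so these shares are not matched for length.

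Motif shares were also taken by position among the members, and the other far peaks were not split in this way. AP-1 was found in 37.0% of intronic members (interval 34.5% to 39.6%) and 32.5% of intergenic ones (30.4% to 34.7%), with overlapping intervals. RUNX core was found in 23.4% and 21.2% of these. In the 237 members inside other genes AP-1 was found in 38.8% (32.8% to 45.2%), and in the 58 exonic members in 48.3% (35.9% to 60.8%), an interval above that of intergenic members. Members with a shared peak within 5 kb had AP-1 in 36.4% and those with none within 50 kb in 35.0%. RUNX core was at 26.0% (interval 21.5% to 31.1%) and 20.6% (18.5% to 22.9%) in the same classes, with overlapping intervals. The 401 members at genes with 4 or more members had AP-1 in 34.9% and RUNX core in 21.4%, much as the 1741 members that were alone at their gene (35.4% and 21.5%). Members in intergenic sequence were slightly wider than intronic ones, with medians of 514 and 495 bp. GC content fell with distance from start sites, from a median of 47.1% in members within 10 kb of one to 43.7% in those more than 50 kb away.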

How the data were processed

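ATAC-seq was available for the growth zones at both ends of the E15.5 mouse femur, 2 biological replicates each. Reads were mapped by the authors to mm10 (Bowtie2 2.2.8), and peaks were called with MACS2 (version 2.1.1 in the submitters' processing notes), keeping peaks at an IDR under 0.05. The other values deposited by the authors are chromosome, start and end positions, 1 list per end combining the replicates, with no score. Read depth was not analysed here, so how depth affects the number of peaks is unknown. Starts were taken as 0-based, as in BED files, and are printed 1-based; the lists hold nothing that could check this.

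Members and gene lists were chosen with earlier results of these data known. Overlaps, distances and motifs were computed with Python 3.11.15, NumPy 2.4.6, SciPy 1.17.1 and pysam 0.24.0 on GRCm38, whose chromosomes match mm10, and GENCODE release 21. The functions were tested on simulated data. Places refer to the peak centre, in the order exon, intron, other gene, intergenic. Intervals of medians are binomial order statistics. Genes named were the 15 with the most members, ties by the share of their far proximal peaks that were specific, list genes with 3 or more members, genes of the 5 largest runs (extended to all runs tied with the fifth) and genes at the limits of the rule. Fbxl13, Gm2582, Tenm3 and the genes at the overlap limit were added after their values were seen. Printed regions were, from the leading genes, those with AP-1 and RUNX core; up to 5 were allowed and chromosome 18 was left out.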

Additional observations from a re-analysis of the deposited data

How the results depend on the processing

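No paired analysis was possible because each deposited list combines the replicates of its femur end, and for the same reason no replicate was left out. Restricting proximal peaks to those of 711 bp or more, the median width of their list, moved the most values. It left 533 regions, 37.5% intronic, 53.3% intergenic and 0.938% exonic, with a median of 33938 bp to the nearest shared peak, 485 assigned genes, 0 genes with 4 or more, AP-1 in 20.1% and RUNX core in 18.8%. The number of regions moved by over 1.5 times at 41 of 43 named genes, from 10 to 0 at Cdh11, from 7 to 0 at Sel1l and Tns3 and from 7 to 3 at Has2. A start site limit of 10 kb gave 37.7% intronic, 55.97% intergenic and 0.906% exonic regions. Counting introns of any annotated gene gave 46.7% intronic, and counting any base in an exon gave 38.4% intronic and 3.57% exonic. When the 3 kb limit itself used start sites of protein-coding genes alone, which gave 3872 regions, their median distance was 42034 bp, and with far shared peaks alone the median gap was 59056 bp. Runs of 4 or more numbered 0 with gaps of up to 25 kb and 35 with gaps of up to 100 kb. AP-1 and RUNX core were in 48.1% and 42.5% of whole peaks and in 21.7% and 11.4% of central 100 bp windows, which are longer or shorter than the 200 bp used above. The number of regions was between 2539 and 3891 under its other alternatives. Requiring no distal peak within 500 bp left each value recomputed that way within its interval or within 1.5 times its count. Assigning to gene bodies moved that number at 4 of the 43 genes, Brf2, Lrrc17, Rab11fip1 and Tmem184c. Lists of peaks without heights limit what can be said of sites just under the calling threshold.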
